A study of Mus musculus with 4 samples.

Results

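The genes described here encode the proteins of the cytoplasmic ribosome in the mouse. They were taken from the RefSeq annotation of GRCm38.p6, the assembly behind mm10, as the protein-coding genes whose symbol starts with Rpl, Rps, Rplp or Rpsp, goes on with a number and may end in a, l, x or y. The rule found 80 of 21631 protein-coding genes: 47 of the large subunit, 30 of the small subunit and 3 of the P-stalk. Rps4l and Rpl6l fit the symbol but are annotated as pseudogenes and were left out. All members but 1 were shorter than 10 kb, and their median length was 3.17 kb, against 17.3 kb over all protein-coding genes. Their surroundings held slightly more genes, with a median of 5.5 protein-coding genes within 100 kb, against 4 over all genes.

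A ribosome joins a small subunit, which reads the messenger RNA, with a large subunit, which makes the peptide bond. Each subunit is built on ribosomal RNA and needs its proteins in near equal amounts. Their genes are short, scattered over nearly all chromosomes and transcribed strongly in dividing and resting cells. Their messenger RNAs start with a run of pyrimidines (C and T in the DNA), through which the growth-sensing kinase mTOR sets how much of them is translated. In the uterus, ribosome production belongs to the growth that estrogen starts. Loops in Hi-C maps often join sites bound by the DNA-binding protein CTCF and by cohesin, and some join promoters with other genes or with distal elements.

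The libraries were Hi-C maps of the uterus of C57BL/6J mice older than 10 weeks. All animals were ovariectomised and rested for 10 to 14 days, and the uterus was collected 1 h after an injection. The progesterone library (replicate 2) came from wild-type mice injected subcutaneously with 1 mg of progesterone dissolved in sesame oil (100 ul). The knockout library (replicate 1) came from mice without estrogen receptor alpha (ERα; genotype Ex3aERKO) given 100 ul of saline into the abdomen. The vehicle libraries (replicates 2 and 3) came from wild-type mice given that same saline. Progesterone and vehicle therefore differ in carrier and route as well, and these cannot be told apart from the hormone. Estradiol samples were not analysed here, and the labels do not state whether a library holds 1 animal or a pool.

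Each library was available as a list of loops, which gives the positions of its 2 anchors and no contact counts. The lists held 11752 loops after progesterone, 21829 in the knockout, 16387 in vehicle replicate 2 and 9385 in vehicle replicate 3. Sequencing depth is unknown, the number of loops is no substitute for it, and a loop that is not listed was not called, which does not show it to be absent. With 1 progesterone and 1 knockout library nothing was tested between conditions. The lists carry no expression, so the tissue could not be checked against its markers. Intervals of shares are exact (Clopper-Pearson) 95% binomial intervals. Those around median lengths are 95% intervals taken from the ranked lengths. Both cover counting error only, and they are too narrow where loops share an anchor.

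The stretches around the start sites of 6 members are shown as examples of members at an anchor in all 4 lists and in none, with the pyrimidine runs and ETS cores that each holds. Of the 80 members, 60 had an entry in the RefSeq promoter table of GRCm38.p6, and each stretch below runs over 150 bases, from 120 before the start site to 30 from it on. Capitals mark runs of 8 or more C or T on the strand of the gene, and CCGGAAG, the core of the sites of ETS-family factors, on either strand. The first 4 genes had their start site inside a loop anchor in all 4 lists, and Rps24 and Rps27 were at an anchor in none.
Rpl28, chr7:4792845-4792994, plus strand: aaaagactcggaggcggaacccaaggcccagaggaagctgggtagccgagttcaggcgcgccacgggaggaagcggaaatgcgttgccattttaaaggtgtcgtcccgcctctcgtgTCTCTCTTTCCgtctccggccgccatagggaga
Rpl13a, chr7:45128716-45128865, minus strand: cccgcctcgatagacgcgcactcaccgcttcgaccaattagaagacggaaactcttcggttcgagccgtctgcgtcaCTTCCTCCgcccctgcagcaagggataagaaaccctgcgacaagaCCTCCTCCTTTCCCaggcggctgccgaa
Rpl41, chr10:128549139-128549288, minus strand: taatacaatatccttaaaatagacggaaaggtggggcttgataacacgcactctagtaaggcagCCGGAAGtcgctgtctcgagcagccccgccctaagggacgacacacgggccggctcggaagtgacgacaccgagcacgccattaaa
Rps7, chr12:28635924-28636073, minus strand: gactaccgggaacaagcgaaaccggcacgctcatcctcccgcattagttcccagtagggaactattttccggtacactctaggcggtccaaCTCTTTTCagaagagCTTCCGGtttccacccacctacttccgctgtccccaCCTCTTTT
Rps24, chr14:24490558-24490707, plus strand: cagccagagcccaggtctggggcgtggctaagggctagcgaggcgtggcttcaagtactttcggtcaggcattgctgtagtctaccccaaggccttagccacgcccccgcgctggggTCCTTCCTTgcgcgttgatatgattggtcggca
Rps27, chr3:90213619-90213768, minus strand: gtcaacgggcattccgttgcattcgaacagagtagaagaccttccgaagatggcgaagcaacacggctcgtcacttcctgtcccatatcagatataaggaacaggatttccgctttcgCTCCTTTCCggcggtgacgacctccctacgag

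A pyrimidine run of 8 or more bases within 50 bases of the start site was found in 49 of 60 member promoters (81.7%), against 34.8% of the 17274 protein-coding genes with an entry. In Rpl41 that run lies outside the letters shown. A C at the start site followed by 4 pyrimidines, the form of the classic start of these messenger RNAs, was found in 13 members (21.7%) and in 2.19% of all entries. CCGGAAG on either strand, searched over the 300 bases of each entry, was in 23 members (38.3%) and in 12.1% of all entries. AAGATGG, the core of YY1 sites, was in 9 members (15%) and 6.40% of all entries, and TATAAA in 7 members (11.7%) and 13.4% of all entries. The motifs were searched independently on both strands and may overlap. A match is a description of the letters and not a bound site. Motifs were searched around the start site of the entry, whereas anchors were placed by the outer start of the gene. In 50 of the 60 members the 2 were the same, and the largest distance between them was 4707 bases, at Rpl19.

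Members with these features were at loops and at none. Of the 15 members with an entry that were at an anchor in all 4 lists, 11 had the pyrimidine run and 5 had CCGGAAG. Of the 13 with an entry that were at an anchor in none, 11 had the run and 3 had CCGGAAG. In 13 of the 60 members with an entry the outer start of the gene, and not only its other end, lay in an anchor in all 4 lists. Rpl10a, Rpl9, Rps13, Rps19 and Rps28 were among them. The share of all genes so placed in all 4 lists was not counted, so the 13 are not a result about the members.

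Ribosomal protein genes stood at loop anchors more often than other genes in each list. Placement required that an anchor contained the start or the end of the gene. This held for 37 of the 80 members after progesterone (46.2%, 35.0 to 57.8), where 27.8% of all protein-coding genes were so placed. In the knockout it held for 47 members (58.8%, 47.2 to 69.6), where the share of all genes was 43.6%. In vehicle replicate 2 it held for 38 members (47.5%, 36.2 to 59.0) against 34.3% of all genes, and in vehicle replicate 3 for 37 members (46.2%, 35.0 to 57.8) against 23.9%. The number of members at anchors was thus nearly the same in 3 lists whose shares of all genes ran between 23.9% and 34.3%.

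The members' counts were also above those of other genes at like gene density. If each member had the share of the other genes in its class of gene density (5 classes, by protein-coding genes within 100 kb), 21.4 members would be at anchors after progesterone, 34.3 in the knockout, 26.7 in vehicle replicate 2 and 18.4 in vehicle replicate 3. The observed counts were 1.73 times this number after progesterone, 1.37 times in the knockout, 1.42 times in vehicle replicate 2 and 2.01 times in vehicle replicate 3. A long gene has its ends far apart and so can touch more anchors, and with classes of gene length added the ratio was 2.67 after progesterone, 2.19 in the knockout, 2.24 in vehicle replicate 2 and 2.96 in vehicle replicate 3. With 5 kb anchors alone the density ratios were 1.54 after progesterone, 1.60 in the knockout, 1.11 in vehicle replicate 2 and 1.21 in vehicle replicate 3. The vehicle ratios on 5 kb anchors were therefore much closer to 1, and in replicate 3 only 8 members were counted there.

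**Figure D1:**
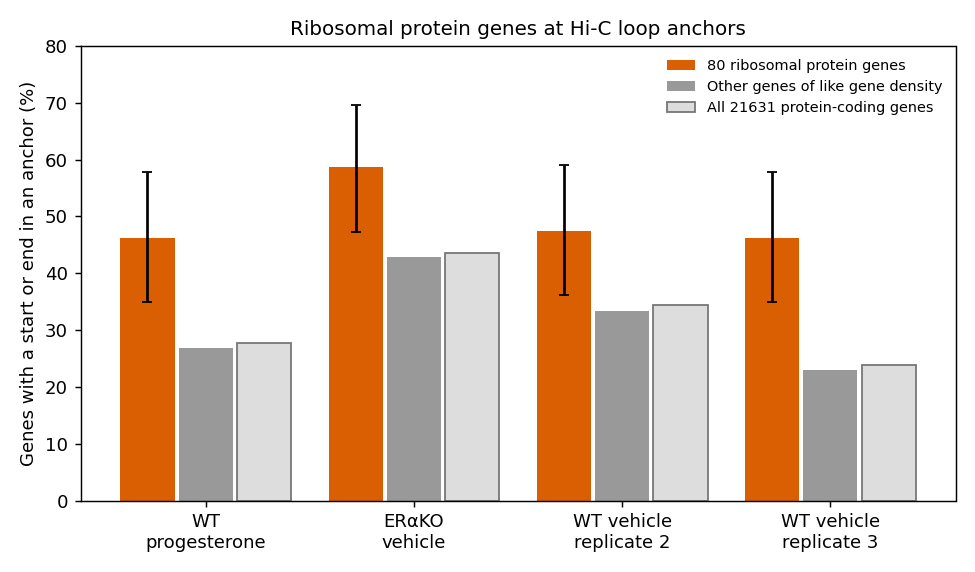
Share of genes (vertical axis, percent) with a start or end in a loop anchor in each library (horizontal axis): orange for the 80 ribosomal protein genes with the exact 95% interval, dark grey for other genes standardised to the gene density of the members, light grey for all protein-coding genes. The orange bars stand at 46.2% to 58.8%, above both grey bars in all 4 libraries.

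The nearest anchor was also closer to the members. The median distance between a member and the nearest anchor, 0 where an end lay inside, was 0.774 kb after progesterone, 0 kb in the knockout, 0.649 kb in vehicle replicate 2 and 2.12 kb in vehicle replicate 3. Over all protein-coding genes these medians were 13.2 kb after progesterone, 2.28 kb in the knockout, 7.29 kb in vehicle replicate 2 and 18.2 kb in vehicle replicate 3. Within 10 kb of an anchor were 51 members after progesterone, 64 in the knockout, 57 in vehicle replicate 2 and 49 in vehicle replicate 3. These were 63.8%, 80%, 71.2% and 61.2% of the members, against 46.0%, 62.2%, 53.8% and 41.3% of all genes in the same order of libraries.

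Neither subunit had the higher share of genes at anchors throughout: the large subunit had 44.7% against 56.7% for the small one in vehicle replicate 2, and 53.2% against 40% in vehicle replicate 3. Of the 47 large subunit genes, 22 were at an anchor after progesterone, 28 in the knockout, 21 in vehicle replicate 2 and 25 in vehicle replicate 3. Of the 30 small subunit genes, 15 were at an anchor after progesterone, 18 in the knockout, 17 in vehicle replicate 2 and 12 in vehicle replicate 3. The P-stalk genes, whose products recruit translation factors to the large subunit, were at no anchor except for Rplp2 in the knockout, where a 5 kb anchor joined it over 35 kb with an anchor that holds an end of Gatd1. Rplp0, which carries the stalk, lay 19.5 kb from the nearest anchor in each of the 4 lists, and Rplp1 lay 13.3 kb from it in 3 of them.

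Over the 4 lists together, 62 members were at an anchor in at least 1 list (77.5%), against 53.6% of all protein-coding genes. At an anchor in all 4 lists were 19 members (23.8%), against 14% of all genes. The 12 large subunit genes among these 19 were Rpl3, Rpl4, Rpl7, Rpl9, Rpl10a, Rpl13a, Rpl18, Rpl19, Rpl28, Rpl37, Rpl37a and Rpl41. The 7 small subunit genes included Rps7, Rps13, Rps19, Rps27a, Rps27l and Rps28. A further 14 members were at an anchor in 3 lists (17.5%, against 10.8% of all genes). In 2 lists were 12 members (15%, near the 12.4% of all genes), and in 1 list 17 (21.2%, against 16.4%).

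Of the 18 members at an anchor in no list, 6 were within 10 kb of an anchor of some list and 12 were not. Farthest was Rpl10l, a retrogene copy of Rpl10 used in the testis, with 0 protein-coding genes within 100 kb and 1108 kb to the nearest anchor of any list. Rpl39l, another testis copy, lay 70.2 kb away, Rpl32l 58.4 kb and the X-linked Rpl39 52.5 kb. Rpl3l, the copy of Rpl3 used in striated muscle, lay 3.86 kb from an anchor of vehicle replicate 3, and the X-linked Rpl36a 11.9 kb from an anchor of 3 lists. The other X-linked members, Rpl10 and Rps4x, were at anchors in the knockout list only, with 2 loops each. Rpl10 reached an anchor with Hcfc1 over 310 kb and one with Gm44504 and Slc10a3 over 100 kb. Rps4x reached Cited1, a transcriptional coregulator, over 65 kb and an anchor without a gene end over 235 kb.

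**Figure D2:**
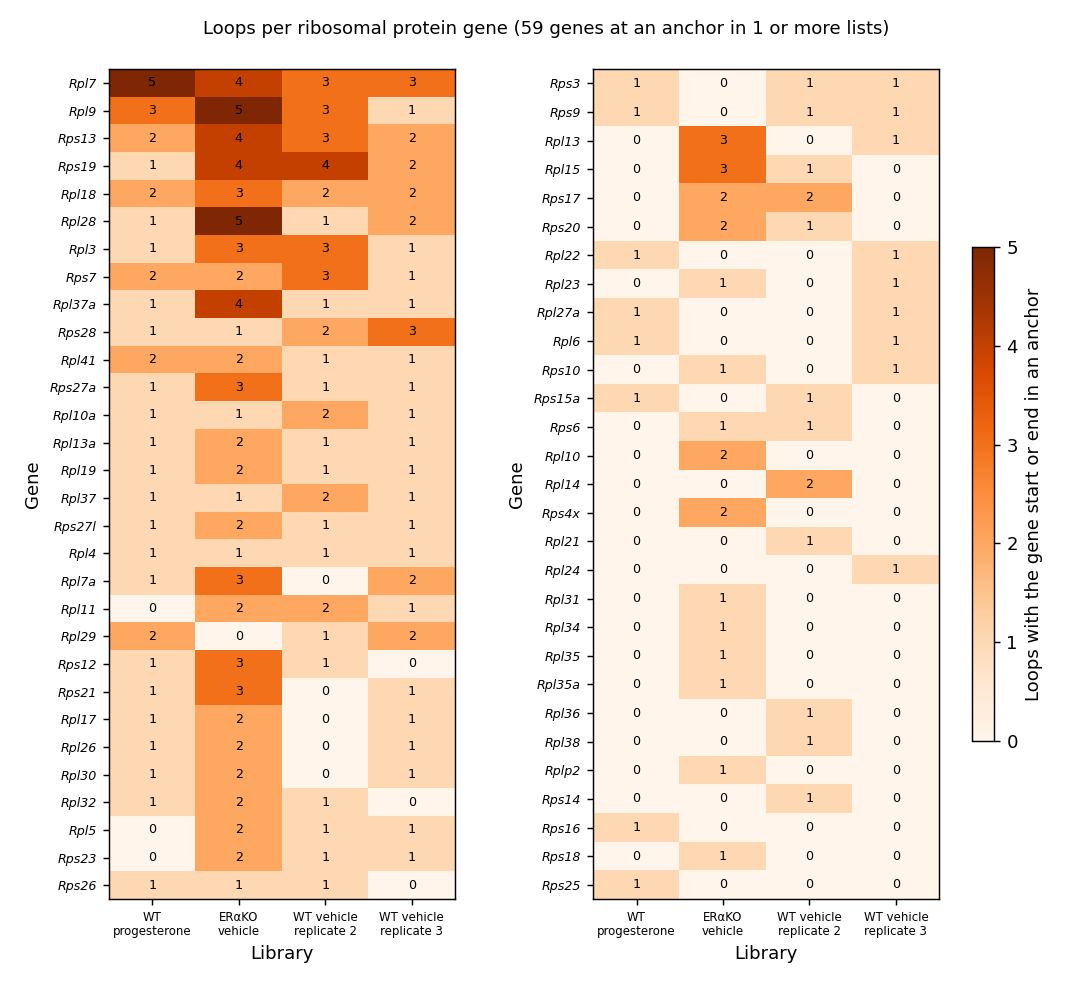
Number of loops (colour and digit) with the start or end of each ribosomal protein gene (rows) in an anchor, by library (columns), for 59 of the 62 genes at an anchor in at least 1 list, ordered by the number of lists and then of loops. The upper rows on the left are 18 of the 19 genes at an anchor in all 4 lists, and the knockout column holds most of the cells with 3 or more loops.

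Rpl7, whose product sits on the large subunit, had the most loops: 5 after progesterone, 4 in the knockout and 3 in each vehicle list. In 10 and 25 kb anchors its gene end shared the bin with Rdh10, which makes retinaldehyde from retinol. Rpl9 had 3 loops after progesterone and 5 in the knockout, against 3 and 1 in vehicle replicates 2 and 3, and all its anchors also held Lias, the lipoic acid synthetase. Rps13 had 2 loops after progesterone and 4 in the knockout, against 3 and 2 in vehicle replicates 2 and 3. Rps19, the gene most often mutated in Diamond-Blackfan anaemia in humans, had 1 loop after progesterone and 4 in the knockout, against 4 and 2 in vehicle replicates 2 and 3. Rpl28 had 1 loop after progesterone and 5 in the knockout, against 1 and 2 in vehicle replicates 2 and 3. Of the members at an anchor, 81.1% had exactly 1 loop after progesterone, 29.8% in the knockout, 65.8% in vehicle replicate 2 and 78.4% in vehicle replicate 3. Of all genes at an anchor these shares were 67.3% after progesterone, 46.0% in the knockout, 58.8% in vehicle replicate 2 and 72.2% in vehicle replicate 3.

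At 4 members 1 loop each was called in exactly the same bins in all 4 lists. The Rpl4 loop joined chr9:64175001-64180000 with chr9:64250001-64255000 over 75 kb, and its far anchor held an end of Map2k1, the kinase MEK1 of the growth factor cascade. The Rpl3 loop joined chr15:80075001-80080000 with chr15:79945001-79950000 over 130 kb, and the Rpl19 loop chr11:98030001-98035000 with chr11:98075001-98080000 over 45 kb. The Rps7 loop, in 25 kb bins, joined chr12:28625001-28650000 with chr12:29275001-29300000 over 650 kb. The far anchors of the Rpl3, Rpl19 and Rps7 loops held no end of a protein-coding gene. With 10 kb of tolerance, 11 members had in each list a loop that was matched in the other 3: Rpl3, Rpl4, Rpl7, Rpl9, Rpl10a, Rpl19, Rpl37a, Rps7, Rps13, Rps19 and Rps27a. The Rpl37a loop among these spanned 1110 kb in 3 lists and 1125 kb after progesterone. Loops found in all 4 lists were 45.8% of the member loops after progesterone and 17.8% in the knockout. They were 27.6% in vehicle replicate 2 and 51.1% in vehicle replicate 3. At other genes these shares were higher in each list, at 49.2%, 23.1%, 32.8% and 65.6% in the same order. The share of other genes with a loop in exactly the same bins was not counted.

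**Figure D3:**
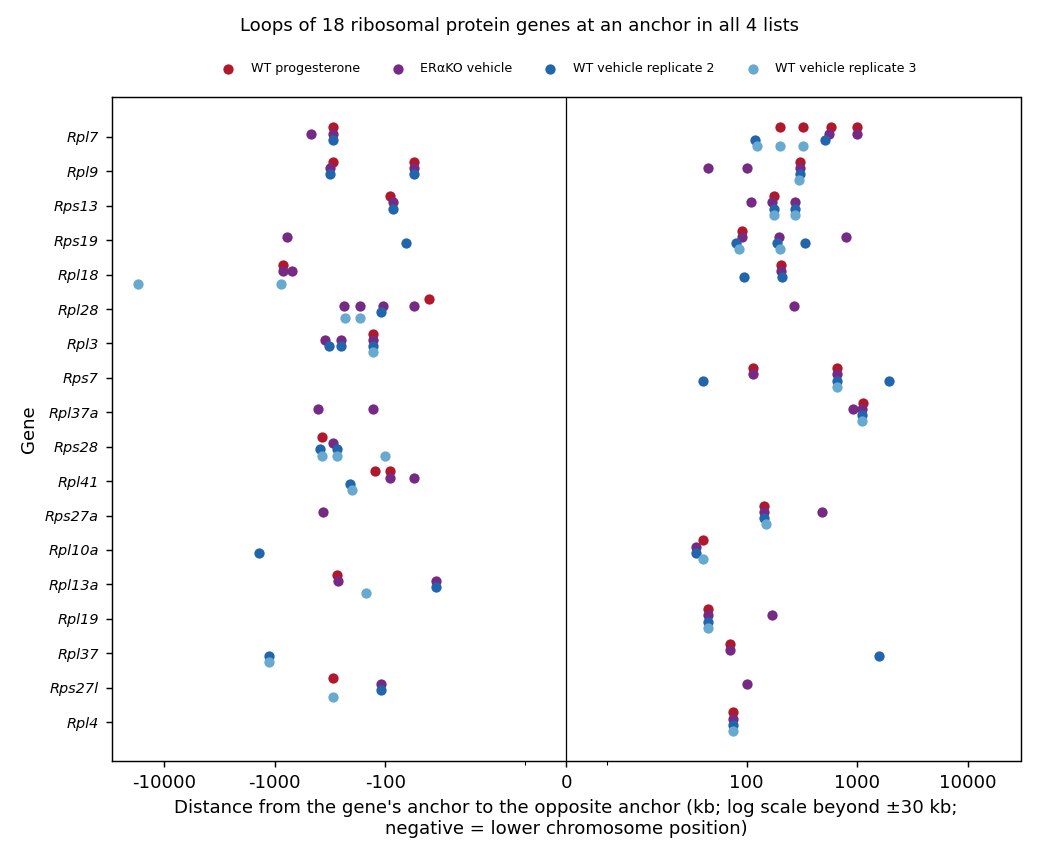
Loops of 18 of the 19 ribosomal protein genes at an anchor in all 4 lists. Each point is a loop, placed by the distance between the anchor at the gene and the opposite anchor (horizontal axis, kb, logarithmic beyond 30 kb on each side, negative for lower chromosome positions), with 1 colour per library. Points of all 4 colours stand at the same distance for Rpl3, Rpl4, Rpl19 and Rps7, while the points of Rpl28 and Rpl37 scatter.

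Loops at members were 48 after progesterone, 101 in the knockout, 58 in vehicle replicate 2 and 47 in vehicle replicate 3. Their opposite anchor held a start or end of another protein-coding gene in 72.9% (58.2 to 84.7) of cases after progesterone and 73.3% (63.5 to 81.6) in the knockout. In vehicle replicate 2 the share was 70.7% (57.3 to 81.9) and in vehicle replicate 3 it was 72.3% (57.4 to 84.4), nearly the same in the 4 lists. For loops at other genes the share was 47.0% after progesterone, 56.4% in the knockout, 46.8% in vehicle replicate 2 and 45.3% in vehicle replicate 3. The gap was smaller at like bin widths and gene density, where other genes gave 56.4% after progesterone, 60.3% in the knockout, 52.9% in vehicle replicate 2 and 58.4% in vehicle replicate 3. The members' intervals excluded these values after progesterone, in the knockout and in vehicle replicate 2 but not in vehicle replicate 3. Loops that share an anchor are not independent, so the intervals are too narrow. On 5 kb anchors alone the share in vehicle replicate 2 was 47.6%, against 40.1% for other genes, in 21 loops.

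**Figure D4:**
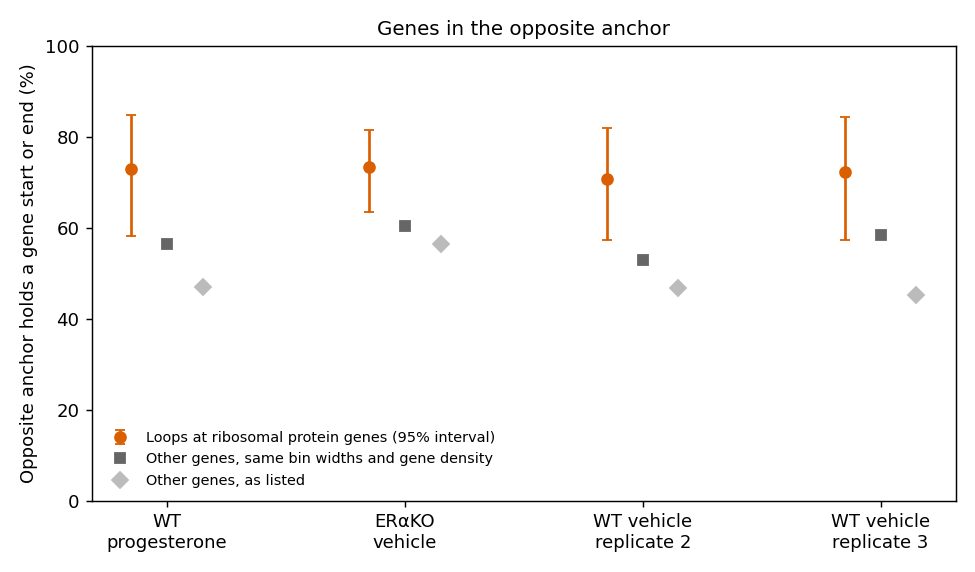
Share of loops (vertical axis, percent) whose opposite anchor holds a start or end of a protein-coding gene, by library: circles with exact 95% intervals for loops at ribosomal protein genes, squares for other genes at the same bin widths and gene density, diamonds for other genes as listed. The circles lie between 70.7% and 73.3%, above the squares and diamonds in each library.

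The partners were diverse, and none of them was another ribosomal protein gene. Members were only 80 of the 21631 protein-coding genes, so finding none among 195 partners is not a result about the members. The opposite anchors held 195 genes in 202 pairs of member and partner, for 55 of the 62 members at an anchor. No loop joined 2 members: 0 of 48 loops after progesterone, which allows a share of up to 6.25% when the limit is put at 3 counts of the total, 0 of 101 in the knockout (up to 2.97%), 0 of 58 in vehicle replicate 2 (up to 5.17%) and 0 of 47 in vehicle replicate 3 (up to 6.38%). Of the pairs, 140 were in 1 list, 43 in 2, 14 in 3 and 5 in all 4. The 5 pairs in all 4 lists were Rpl4 with Map2k1, Rpl9 with Pds5a, Rps13 with Nucb2, Rps19 with Rabac1 and Rps27a with Rtn4.

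Pds5a, a regulator of cohesin, lay 305 kb from Rpl9 after progesterone, in the knockout and in vehicle replicate 2, and 300 kb in vehicle replicate 3 with its wider bins. Rps27a, which encodes ubiquitin fused to a small subunit protein, reached Rtn4, the reticulon known as Nogo, over 145 kb in 3 lists and 150 kb in vehicle replicate 3. Rps13 reached Nucb2, the precursor of nesfatin, over 175 kb after progesterone and 170 kb in the knockout, and over 175 kb in each vehicle list. Rps19 reached Rabac1, a Rab-binding protein, over 90 kb after progesterone and in the knockout, and over 80 and 85 kb in vehicle replicates 2 and 3. Among the pairs in 3 lists, Rpl9 with Rfc1, the large subunit of the clamp loader of DNA replication, spanned 55 kb, Rps26 with Suox, the sulfite oxidase, 45 kb, and Rpl7 with Terf1, a telomere-binding protein, 300 kb. Rpl18 with Akt1s1, a subunit of the mTOR complex, spanned 850 kb after progesterone and in the knockout and 875 kb in vehicle replicate 3.

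Loops at members had longer medians than those at other genes over all anchor widths, but not in each list when 5 kb anchors were taken alone. Brackets here give the shortest and longest loop. The median length was 240 kb (40 to 2450) after progesterone and 170 kb (35 to 2590) in the knockout. It was 237.5 kb (35 to 4700) in vehicle replicate 2 and 225 kb (40 to 17325) in vehicle replicate 3. Loops at other genes had medians of 175 kb after progesterone and 145 kb in the knockout. Their medians were 160 kb in vehicle replicate 2 and 180 kb in vehicle replicate 3. The interval around the members' median was 125 to 325 kb after progesterone and 115 to 235 kb in the knockout. It was 170 to 325 kb in vehicle replicate 2 and 175 to 300 kb in vehicle replicate 3. The interval excluded the median of other genes in vehicle replicate 2 only and held it in the other lists. These intervals are also too narrow, because loops that share an anchor are not independent. Among loops with 5 kb anchors the members' median was 80 kb against 85 kb for other genes after progesterone, 100 against 85 kb in the knockout, 65 against 90 kb in vehicle replicate 2 and 75 against 90 kb in vehicle replicate 3. Anchors of 25 kb made up 43.8% of the members' anchors after progesterone, 12.9% in the knockout, 31.0% in vehicle replicate 2 and 61.7% in vehicle replicate 3, against 30.2% for other genes after progesterone, 17.6% in the knockout, 22.6% in vehicle replicate 2 and 37.0% in vehicle replicate 3. The longest loops were 17325 kb between Rpl18 and an anchor with Zfp36, Med29, Paf1 and Samd4b in vehicle replicate 3, and 4700 kb between Rps20 and Rab2a in vehicle replicate 2; each was in that list alone. The 2450 kb loop between Rps9 and the anchor of Zfp787 and Zfp444 after progesterone was matched in both vehicle lists.

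**Figure D5:**
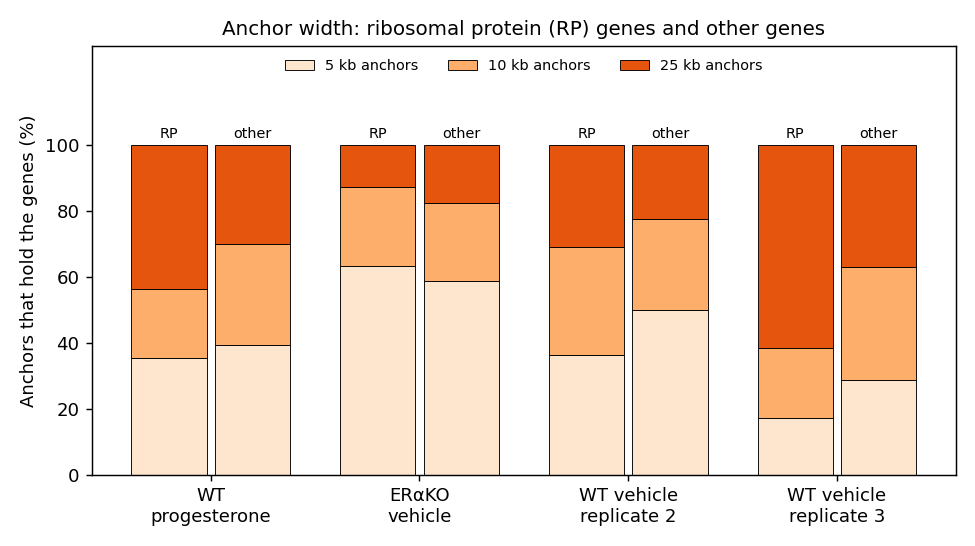
Share of anchors (vertical axis, percent) of 5, 10 and 25 kb width among the anchors that hold ribosomal protein genes (RP, left bar of each pair) and other genes (right bar), by library. The 25 kb part is larger for ribosomal protein genes after progesterone and in both vehicle libraries and smaller in the knockout, where it is 12.9% against 17.6%.

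Members shared their anchor with a neighbouring gene more often than other genes did, except in the 5 kb anchors of vehicle replicate 3. These shares were not standardised for gene density, and members had more genes around them (median 5.5 against 4 within 100 kb). The part of gene density in the difference was not tested. The member was the only protein-coding gene with an end in its anchor in 27.1% of cases against 63.3% for other genes after progesterone, 52.5% against 62.5% in the knockout, 44.8% against 64.3% in vehicle replicate 2 and 29.8% against 61.5% in vehicle replicate 3. In 5 kb anchors it was 58.8% against 71.9% after progesterone, 62.5% against 67.7% in the knockout, 57.1% against 71.1% in vehicle replicate 2 and 75% against 73.8% in vehicle replicate 3. In 25 kb anchors it was 4.76% against 49.8% after progesterone, 7.69% against 42.4% in the knockout, 16.7% against 46.7% in vehicle replicate 2 and 10.3% against 48.6% in vehicle replicate 3. In a 25 kb anchor a loop could thus seldom be assigned to the ribosomal protein gene itself, as at Rpl18, whose 25 kb anchors also held Car11, Dbp, Sphk2 and Fam83e.

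Progesterone was set against vehicle by the loops that both vehicle lists held, in the positions of replicate 2. Of 25 member loops of this kind, the progesterone list lacked 8 (32.0%, 14.9 to 53.5), and it lacked 18.1% of 3364 loops at other genes. They lay at Rpl5, Rpl7, Rpl11, Rpl37, Rpl41, Rps19, Rps23 and Rps28, 1 at each. The Rpl11 loop reached Kdm1a, the histone demethylase LSD1, over 550 kb and was in the knockout list as well. The Rps23 loop spanned 1430 kb, the Rpl41 loop reached Cs, the citrate synthase, over 210 kb, and the Rps19 loop reached Grik5 and Zfp574 over 190 kb. For Rpl7 the loop to Stau2 over 120 kb had a loop of the progesterone list within 25 kb of both its anchors, and its counterpart with 25 kb anchors in vehicle replicate 3 was matched in the progesterone list. As a baseline, of the 25 loops shared by progesterone and vehicle replicate 2, 8 were not in vehicle replicate 3 (32.0%), and of the 29 shared by progesterone and vehicle replicate 3, 4 were not in vehicle replicate 2 (13.8%). At other genes these shares were 34.1% not in vehicle replicate 3 and 7.65% not in vehicle replicate 2.

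In the other direction, 9 of the 48 member loops of the progesterone list were in neither vehicle list (18.8%, 8.95 to 32.6), against 16.1% of the loops at other genes. They included 2 at Rpl7 and 1 each at Rpl13a, Rpl37, Rps7, Rps16 and Rps25. The Rpl37 loop reached Prkaa1, a catalytic subunit of the energy sensor AMPK, and Ttc33 over 70 kb. The Rps7 loop reached Trappc12 and Eipr1 over 115 kb, and the Rpl13a loop Akt1s1 and Ptov1 over 275 kb. Each of these 3 was matched in the knockout list, as was the Rpl7 loop to Jph1 over 990 kb. In the progesterone list alone were a 575 kb loop of Rpl7 to Tmem70 and Ly96, the Rps16 loop to Eid2b over 75 kb and the Rps25 loop over 425 kb. Of the 9, 2 had a vehicle loop within 25 kb of both anchors, the Rps16 loop among them. The share of member loops found in neither vehicle list was close to that of other genes.

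The knockout list held nearly all member loops that both vehicle lists held. Of the 25, 3 were not called in the knockout (12.0%, 2.55 to 31.2), against 10.9% of loops at other genes, and all 3 had 25 kb anchors. They were the Rpl37 loop to Fbxo4 and AW549877 over 1125 kb, the Rpl5 loop to Tmed5 and Ccdc18 over 225 kb and the Rps9 loop to Cdc42ep5 over 450 kb. The Rpl37 loop had a loop of the knockout list within 25 kb of both its anchors. Without 25 kb loops the count was 0 of 17. The Rpl37 and Rpl5 loops were also among those not called after progesterone.

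Of the 101 member loops of the knockout list, 59 were in neither vehicle list (58.4%, 48.2 to 68.1), against 44.8% of 11309 loops at other genes. They were spread over 41 members, with 3 each at Rpl7 and Rpl37a, 2 each at 15 members such as Rpl10, Rpl28, Rps12, Rps19 and Rps4x, and 1 at each of the rest. Of the 59, 10 had a vehicle loop within 25 kb of both anchors. Rps12 reached Tcf21, a transcription factor of mesenchyme, over 970 kb, and Rps19 reached an anchor with B9d2 and Tgfb1, the growth factor TGF-β1, over 800 kb. Rpl19 reached Med1, the Mediator subunit that nuclear receptors bind, over 170 kb. At an anchor in the knockout list and in no other were 9 members (11.2% of 80, near the 10% of all genes), among them Rpl10, Rpl31, Rpl34, Rpl35, Rpl35a, Rplp2, Rps4x and Rps18. The knockout list was also the longest, with 21829 loops against 16387 and 9385 in the vehicle lists. It had the largest share of 5 kb anchors among those at members, 63.4%, against 36.2% and 17.0% in vehicle replicates 2 and 3. The part of list length in the 59 loops was not tested, and with 1 knockout library it cannot be told apart from the genotype.

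Between lists, member loops were found again about as often as, or less often than, loops at other genes. Of the 48 loops after progesterone, 40 were in the knockout list (83.3%, 69.8 to 92.5), 35 in vehicle replicate 2 (72.9%) and 29 in vehicle replicate 3 (60.4%), against 80.3%, 79.2% and 57.1% for other genes. Of the 101 knockout loops, 38 were in vehicle replicate 2 (37.6%, 28.2 to 47.8) and 28 in vehicle replicate 3 (27.7%, 19.3 to 37.5), against 51.5% and 30.8%. Of the 47 loops of vehicle replicate 3, 34 were in vehicle replicate 2 (72.3%, 57.4 to 84.4), against 83.6%. The interval excluded the value of other genes for the knockout loops in vehicle replicate 2 and held it for the others of these comparisons given with an interval. Loops that share an anchor are not independent, so these intervals are too narrow. The shares were not standardised for bin width or gene density.

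A further 3 lists of genes for the translation machinery were also above the share of all genes in all 4 libraries, some of them narrowly. That share was 27.8% after progesterone, 43.6% in the knockout, 34.3% in vehicle replicate 2 and 23.9% in vehicle replicate 3. Of 78 mitochondrial ribosomal protein genes, 27 (34.6%) were at an anchor after progesterone and 51 (65.4%) in the knockout. In vehicle replicates 2 and 3 there were 40 (51.3%) and 28 (35.9%). These counts were 1.29 times the number for their gene density after progesterone, 1.52 times in the knockout, 1.53 times in vehicle replicate 2 and 1.56 times in vehicle replicate 3. Of 30 ribosome biogenesis genes, 11 were at an anchor after progesterone (36.7%, 1.34 times) and 21 in the knockout (70%, 1.58). In vehicle replicates 2 and 3 there were 16 (53.3%, 1.56) and 9 (30%, 1.28). The mitochondrial and biogenesis ratios were above the members' 1.37 in the knockout and 1.42 in vehicle replicate 2. They were below the members' 1.73 after progesterone and 2.01 in vehicle replicate 3. Of 15 genes for elongation factors and other messenger RNAs with pyrimidine starts, 5 were at an anchor after progesterone (33.3%, 1.20 times). In the knockout there were 10 (66.7%, 1.53), in vehicle replicate 2 there were 7 (46.7%, 1.36) and in replicate 3 there were 4 (26.7%, 1.12). The counts of 5 and 4 stood near the numbers for gene density, 4.16 and 3.59. Of the 7 ribosomal proteins with other symbols, none was at an anchor after progesterone or in vehicle replicate 3. Their gene density gave only 1.83 and 1.58 there. In the knockout 4 were at an anchor (57.1%, against 43.6% of all genes, 1.32 times). In vehicle replicate 2 this held for 1 (14.3%, against 34.3% of all genes, 0.44 times). Rack1, the scaffold on the small subunit, was at an anchor in the knockout and vehicle replicate 2 with 2 loops in each, and Rpl7l1 and Rpl36al in the knockout alone.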

How the data were processed

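Per the labels' protocols, Hi-C libraries of uterus were made with the Arima kit. The authors deposited 1 loop list per library, in 6 columns of positions (chromosome, start and end of each anchor). Build mm10 and Juicer 1.5.6 are named per the submitters' processing notes. Which caller made the loops, and with what thresholds, is not stated in the sources used. Starts count from 0 in the deposited lists and from 1 here.

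The members, the other gene lists and the settings were chosen with earlier results of these data known. The named genes were the members at anchors in all 4 lists, up to 10 members in each direction of each comparison, their partners, the P-stalk, X-linked and tissue-restricted genes, and the 5 members farthest from an anchor; other genes named, and loops singled out by length, partner or share of lists, were chosen after their values were seen. Some genes that this rule names are not reported here. Genes were placed by start or end, chromosomes Y and MT left out. Loops of different lists were matched when both anchors, widened by 10 kb on each side, were overlapped by the anchors of 1 loop of the second list. The density-matched comparison is a direct standardisation over 5 classes of genes within 100 kb. Loops at other genes were counted once per pair of gene and anchor, except for matching between lists, where each loop was counted once. Strand came from the RefSeq promoter table (60 members). Placement and matching were tested on simulated data and recovered what was planted. The moved loops and outside genes were planted far from any match, so near misses and loops of unlike bin widths were not tested. Python 3.11.15, numpy 2.4.6, pandas 2.3.3, scipy 1.17.1 and matplotlib 3.10.9 were used.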

Additional observations from a re-analysis of the deposited data

How the results depend on the processing

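The share of members at anchors was above that of all genes under each placement and anchor width tried, except with 10 kb anchors alone after progesterone (8 of 80, against 10.6%). With 5 kb anchors alone 16 members (20% of 80) were counted after progesterone, 18 (22.5%) in vehicle replicate 2 and 8 (10%) in vehicle replicate 3, against 13.1%, 20.5% and 8.25% of all genes. With 10 kb anchors alone 21 (26.2%) were counted in the knockout, 14 (17.5%) in vehicle replicate 2 and 9 (11.2%) in vehicle replicate 3, against 16.3%, 12.8% and 9.56% of all genes. The vehicle shares on 5 kb anchors, and that of vehicle replicate 3 on 10 kb anchors, were near those of all genes. By start site alone, 24 of 60 members were counted after progesterone, 25 in vehicle replicate 2 and 24 in vehicle replicate 3, against 21.0%, 27.0% and 16.9% of all genes. The ratio to the number for gene density was 2.67, 2.19, 2.24 and 2.96 with gene length classes, in the order progesterone, knockout, vehicle replicates 2 and 3. By gene body the ratio was 1.29 after progesterone, 1.14 in the knockout, 1.11 in vehicle replicate 2 and 1.45 in vehicle replicate 3. The shares by gene body were near those of all genes in the knockout (58.8% against 52.9%) and vehicle replicate 2 (47.5% against 44.6%). In vehicle replicate 3 the ratio was 1.51 within 10 kb, 1.21 on 5 kb anchors and 1.34 without 25 kb loops, a setting chosen after seeing the data. Median loop length on 5 kb anchors was 80, 100, 65 and 75 kb in that order. The opposite anchor overlapped any part of a gene in 85.4%, 89.1%, 86.2% and 89.4% of loops, against 72.4%, 78.0%, 72.5% and 72.0% for other genes, and held an end in 47.6% on 5 kb anchors in vehicle replicate 2. Loops in the vehicle lists and not after progesterone numbered 18 of 47 without vehicle replicate 2 (24.5% at other genes), 33 of 58 without replicate 3 (46.5%) and 5 of 17 without 25 kb loops (16.1%). Those after progesterone and in no vehicle list numbered 19 of 48 without vehicle replicate 2 (42.9% at other genes), 13 of 48 without replicate 3 (20.8%), 16 of 48 with 0 kb added (32.3%) and 5 of 27 without 25 kb loops (13.5%). Those not in the knockout numbered 8 of 47 without vehicle replicate 2 (15.4% at other genes), 19 of 58 without replicate 3 (26.8%), 5 of 18 with 0 kb added (25.1%) and 0 of 17 without 25 kb loops (8.86%). Those in the knockout and in no remaining vehicle list numbered 73 of 101 without vehicle replicate 2 (69.2% at other genes) and 63 of 101 without replicate 3 (48.5%). The causes were not tested; leaving out a list removes a condition that each loop had to meet. Of 92 alternative values, 54 stayed close to the reported one: within 1.5 times for counts, and within its interval for shares, ratios and median lengths. Counts were compared without their totals, which differed between settings. For loops not called after progesterone, 9 of 18 with 0 kb added was thus close to 8 of 25, and 5 of 17 was not. Member counts by gene body were unchanged, while the share of all genes after progesterone rose from 27.8% to 37.7%. No paired analysis was possible because progesterone and vehicle share only replicate number 2, and the knockout shares none. Depth and loop strength are unknown, so neither could be set beside the counts.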

Other observations

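Chromosome 7 carried the most members, 14, and all 14 were at an anchor in at least 1 list, against 45.6% of its 2030 protein-coding genes; 6 of them (Rpl13a, Rpl18, Rpl28, Rps13 and Rps19 among them) were at an anchor in all 4 lists, against 12.3% of its genes. The chromosome was singled out after its values were seen. On the X chromosome 2 of 4 members were at an anchor in some list, against 33.4% of its genes.

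TATAAA was found in the promoters of 5 of the 13 members with an entry that were at an anchor in no list, in 1 of the 15 at an anchor in all 4 lists and in 1 of the 32 in between. Of all entries, 13.4% held it. A C at the start site and 4 pyrimidines was in 2 of the 13, 1 of the 15 and 10 of the 32. Both features were singled out after their values were seen. Among the 5 kb loops of members, the 45 kb loop of Rps26 to Suox was called in the same bins in 3 lists, as was the 55 kb loop of Rpl9 to Rfc1. Rpl37 reached these partners: Ttc33 and Prkaa1 over 70 kb after progesterone, Ttc33 over 70 kb in the knockout, Rictor, a subunit of the second mTOR complex, over 1590 kb in vehicle replicate 2, and Fbxo4 and AW549877 over 1125 kb in both vehicle lists.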
